A study of Rattus norvegicus with 12 samples.

Results

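Conventional dendritic cells of the rat liver were picked cell by cell from 6 single-cell libraries, and 128 of the 25659 cells that passed the filters met the rule, or 0.499%. A cell had to hold at least 10 UMIs (unique molecular identifiers, each standing for 1 captured mRNA molecule) of Cd74, at least 1 UMI of Xcr1, Clec9a or Clec10a, none of the pDC gene Siglech, and less than 0.3% of its UMIs from the Kupffer cell genes Cd5l, Clec4f, Vsig4, C1qa, C1qb and C1qc. Of these, 71 cells counted Xcr1 or Clec9a, the genes of the cDC1 subset, and 57 counted Clec10a alone, the gene used for cDC2. In the first set, 5 cells also held Clec10a. The 11 genes of this rule chose the cells, so their levels are descriptions and were left out of every test.

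The libraries came from healthy male Dark Agouti (DA) and Lewis (LEW) rats. Total liver homogenate (TLH), the mixed cell suspension of a collagenase-digested liver, was sequenced from 2 DA and 2 LEW rats with 10x version 2 chemistry. An immune-enriched suspension, washed further and depleted of red cells, was sequenced from 1 rat of each strain with version 3 chemistry, so preparation and chemistry cannot be told apart. The labels give the TLH rats as 8 to 10 weeks old, while the names of the deposited tables hold an age of 10 weeks in the DA and 13 weeks in the LEW case. In the immune-enriched case the names hold 9 weeks for both strains. The study's methods give a higher age and call the strains age-matched, so the sources differ on age, and it could not be settled here. No rat was treated or carried a transgene.

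Dendritic cells sample their surroundings, load peptides onto MHC molecules and present them to T cells. The cDC1 subset depends on the transcription factors Irf8 and Batf3, takes up dead cells through Clec9a, is drawn to Xcl1 through the chemokine receptor Xcr1, and excels at cross-presentation to CD8+ T cells. The cDC2 subset leans on Irf4 and mainly primes CD4+ T cells. Clec10a is a galactose-binding lectin of cDC2 that some macrophages also carry, and Cd74 is the invariant chain that accompanies MHC class II molecules to the endosome. In the liver, conventional dendritic cells sit around the portal tracts and are a small minority beside Kupffer cells.

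Promoter sequence is shown for both genes that define the Xcr1/Clec9a set and for Clec4a1, a C-type lectin receptor that separated the Clec10a-only cells from them. Each run is the 250 bases before the RefSeq transcription start on GRCr8, written 5′ to 3′ on the gene's strand, with motif matches in capitals. The windows are chr8:132364657-132364906 on the minus strand for Xcr1, chr4:164546073-164546322 on the plus strand for Clec9a and chr4:157845561-157845810 on the plus strand for Clec4a1.
Xcr1: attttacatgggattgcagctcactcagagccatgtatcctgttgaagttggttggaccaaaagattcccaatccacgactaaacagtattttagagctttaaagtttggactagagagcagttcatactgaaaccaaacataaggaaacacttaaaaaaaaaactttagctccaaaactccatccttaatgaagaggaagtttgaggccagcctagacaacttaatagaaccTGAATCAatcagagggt
Clec9a: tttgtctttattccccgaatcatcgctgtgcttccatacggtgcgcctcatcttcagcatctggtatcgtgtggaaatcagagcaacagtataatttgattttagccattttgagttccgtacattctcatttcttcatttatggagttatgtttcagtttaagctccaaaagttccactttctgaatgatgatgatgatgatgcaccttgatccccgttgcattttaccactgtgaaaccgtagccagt
Clec4a1: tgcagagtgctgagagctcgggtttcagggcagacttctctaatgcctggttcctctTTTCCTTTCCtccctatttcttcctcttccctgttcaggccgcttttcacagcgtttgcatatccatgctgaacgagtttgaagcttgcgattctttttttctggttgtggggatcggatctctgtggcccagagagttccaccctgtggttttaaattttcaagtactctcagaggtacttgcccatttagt
The capitals mark an AP-1 site (TGANTCA, bound by Batf and Jun proteins) in Xcr1, starting 17 bases before the transcription start, and an Ets-IRF site (GGAA and GAAA with any 2 bases between them) in Clec4a1, starting 193 bases before it. Clec9a held no match to these letters, nor to the IRF site (GAAA and GAAA with any 2 bases between them). Both strands were searched, and 6.34%, 2.48% and 3.41% of all 33469 promoters of this length held the AP-1, Ets-IRF and IRF motif. A match is a run of letters and not a measured binding site.

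The libraries held 48255870 to 92484173 UMIs in all. Filtered cells had a median of 2304.5 to 2515 UMIs in the TLH libraries and 4090.0 and 5581 in the immune-enriched ones. The dendritic cells had a median of 3314 UMIs (lowest 2021, highest 6653) over 79 TLH cells and of 10579 (lowest 1143, highest 21561) over 49 immune-enriched cells. Above the 99th percentile of UMIs in their own library lay 8 of the 128, a larger share than among all filtered cells. All 8 were TLH cells (1, 4, 2 and 1 in DA-1, DA-2, LEW-1 and LEW-2), and no doublet caller was run. Not one filtered cell had the same counts as a cell of another library. Hepatocyte marker genes such as Alb and Apoa1 took 3.07 to 5.14% of the dendritic cells' UMIs in TLH and 0.0708% and 0.419% in the immune-enriched DA and LEW libraries. Among the other filtered cells they took 7.69, 8.75, 8.08 and 8.47% in the TLH libraries DA-1, DA-2, LEW-1 and LEW-2. In immune DA and immune LEW the other cells stood at 4.09 and 8.44%. These are shares of the marker genes alone, and the share of all hepatocyte RNA in the dendritic cells was not estimated.

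The edges of the rule were thin in places. Just inside the Cd74 limit lay 2 cells with 10 to 14 UMIs, and just outside it lay 7 cells with 5 to 9. In 49 of the 128 cells the subset call rested on 1 UMI, 4 of them in immune DA and 1 in immune LEW. The Kupffer limit alone kept out 82 cells, of which 60 had over 1% of their UMIs from those genes and 3 lay between 0.3% and 0.4%. A further 6 cells were kept out by a Siglech UMI. Xcr1 was counted in 48 and Clec9a in 50 of the 71 cells, and 27 cells held both.

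The cDC1 name held against the markers that the rule did not use. In the immune-enriched libraries, where cells were deepest, Irf8 was counted in 20 of 21 Xcr1/Clec9a cells (95.2%, exact 95% binomial interval 76.2 to 99.9%, counting error only), in 58 of 58 pDC and in 371 of 3618 other cells. The median depth was 12427 UMIs for these cells, 7387.5 for pDC, 2778 for B cells and 4760.0 for other cells. Flt3, the growth factor receptor of dendritic cell precursors, was counted in 8 of the 21, in 17 of 58 pDC and in 0 of 110 B cells. Batf3 was sparse, with 9 of 71 cells over all libraries.

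The cDC2 name held only in part. Sirpa, the signal-regulatory receptor of cDC2 and macrophages, was counted in 14 of 28 immune-enriched Clec10a-only cells (50%, interval 30.6 to 69.4%) and in 0 of 21 Xcr1/Clec9a cells, but also in 689 of 3618 other cells. Cd209a and Fcer1a were at 0 UMIs in all 57 Clec10a-only cells, Irf4 was counted in 6, Zbtb46 in 5 and Flt3 in 1. Genes shared with monocytes and macrophages were counted in more of these cells. The receptor for colony-stimulating factor 1, Csf1r, was counted in 42 of the 57 cells, the antibody receptor Fcgr1a in 26 and the lysozyme gene Lyz2 in 54. Lyz2 was frequent in Xcr1/Clec9a cells too, with 62 of 71. In the immune-enriched libraries Csf1r was counted in 27 of 28 Clec10a-only, 6 of 21 Xcr1/Clec9a and 455 of 3618 other cells, and Fcgr1a in 21, 0 and 338. Itgam and Ccr2, which are on the list of genes known for cDC2 used below, are not reported here. The second set is therefore called Clec10a-only cells below, and all 128 cells together are called dendritic cells by the rule alone.

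**Figure D1:**
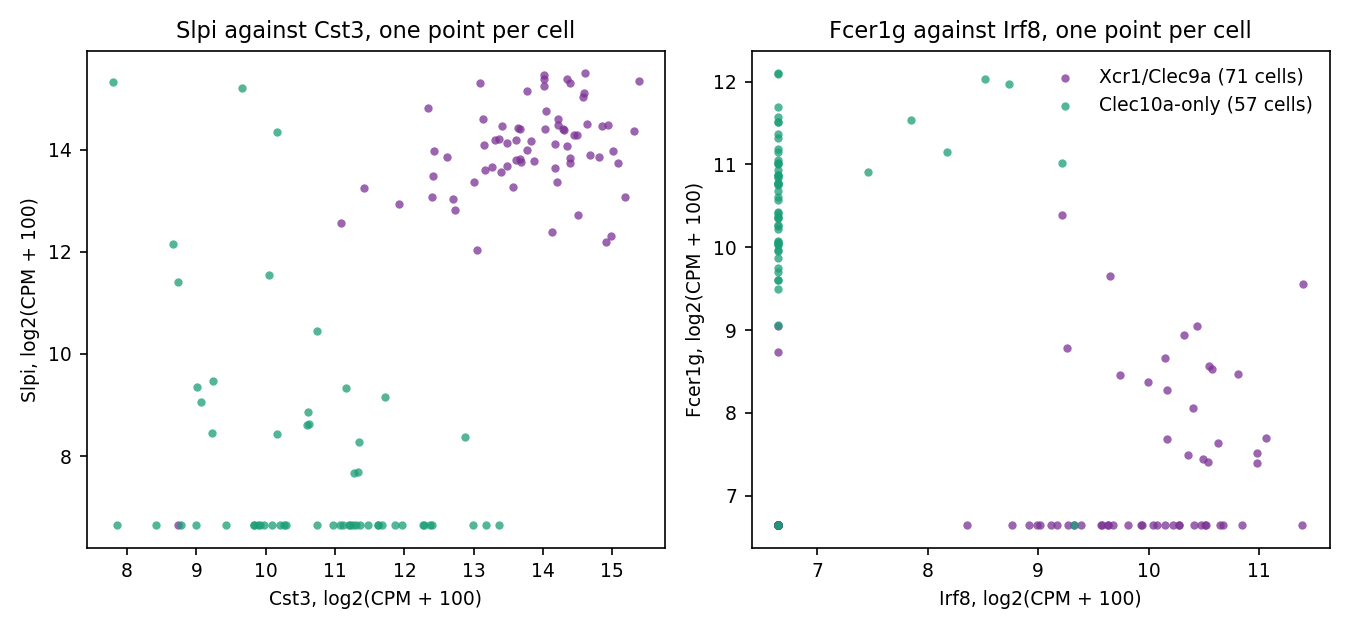
Each point is 1 of the 128 cells, coloured by subset, with Slpi against Cst3 on the left and Fcer1g against Irf8 on the right, on axes of log2(CPM + 100) where CPM is UMIs per 1000000 UMIs of that cell. Xcr1/Clec9a cells lie at high Slpi and Cst3 (medians 17062 and 16389.5 CPM over 71 cells), while most of the 57 Clec10a-only cells lie at 0 Slpi and at a median Cst3 of 1607 CPM.

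The comparison of Xcr1/Clec9a with Clec10a-only cells asks which other genes follow the split. Values over libraries are given in the order DA-1, DA-2, LEW-1, LEW-2, immune DA and immune LEW, as UMIs per 1000000 UMIs (CPM), summed over the cells of 1 set in 1 library, and the sums rest on 2 to 33 cells. Cst3, the cysteine protease inhibitor cystatin C that cDC1 make in abundance, stood at 9358, 14263, 21995, 26609.9, 22520.3 and 17819.5 CPM in Xcr1/Clec9a cells and at 1434, 1594, 2297, 4591, 2422 and 2307 CPM in Clec10a-only cells. The Xcr1/Clec9a sum was the higher one in each library, and 51 of 71 Xcr1/Clec9a cells lay above the highest Clec10a-only cell, while the other 20 overlapped with Clec10a-only cells. Slpi, a secreted inhibitor of neutrophil proteases, stood at 13482, 17963, 25249.7, 8994, 25836 and 24714 CPM against 119, 266, 93.8, 321, 2397 and 6559.9 CPM. It was high in every Xcr1/Clec9a sum and was higher in the immune-enriched than in the TLH sums of Clec10a-only cells, where 3 single cells exceeded 10000 CPM. Irf8 stood at 833, 652, 561, 639, 1243 and 1306 CPM in Xcr1/Clec9a cells, with UMIs in 54 of 71, and at 59.7, 0, 0, 0, 43.8 and 0 CPM in Clec10a-only cells, with UMIs in 7 of 57. Fcer1g, the signalling chain of activating Fc receptors, ran the other way, at 39.7, 134, 0, 0, 102 and 68.7 CPM in 24 of 71 Xcr1/Clec9a cells and 1195, 1328, 1875, 1515, 1999 and 1894 CPM in 54 of 57 Clec10a-only cells. All 4 genes kept 1 direction in each of the 6 libraries, as did 6.65% of 346 tested genes that were higher and 16.5% that were lower in Xcr1/Clec9a cells throughout.

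The split was tested across genes in 2 fits, with the library as a factor in edgeR's quasi-likelihood test and Benjamini-Hochberg adjustment over all genes tested. The fit on libraries with at least 10 cells of each set could use DA-2 and immune DA only, leaving 1 residual degree of freedom and no LEW library, and it called 71 of 2012 genes (3.53%), 34 higher in Xcr1/Clec9a cells (1.69%) and 37 lower (1.84%). The p-values of this 2-library fit, here and below, therefore say little about the spread between rats. A second fit, added after the data were seen, took all 6 libraries at 2 or more cells of each set, and called 56 of 346 genes (16.2%), 36 higher (10.4%) and 20 lower (5.78%). Of the 71 calls, 12 were abundant enough to be tested there, all 12 kept their sign and 8 were called again. The 6-library fit includes DA-2 and immune DA, so this agreement is no independent repeat. The genes called in both fits were Cst3, Fcer1g, Irf8, Ly6e, Psap, Slpi, Tmsb10 and Ucp2. The log2 fold change of Irf8 was 4.90 ± 0.57 (SE) in 2 libraries and 5.35 ± 0.38 in 6 (adjusted p = 9.7e-15 and 2.9e-09). For Cst3 it was 3.16 ± 0.47 and 3.09 ± 0.13 (adjusted p = 4.2e-09 and 6.5e-13), for Slpi 4.39 ± 0.53 and 4.28 ± 0.78 (adjusted p = 1.3e-13 and 0.022), and for Fcer1g −3.87 ± 0.45 and −4.12 ± 0.27 (adjusted p = 5.1e-15 and 1.4e-09). Irf8, Cst3 and Fcer1g stayed past the threshold under all 14 alternatives run, and Slpi under 12. The 2-library count itself depended on the setting and ran from 12 genes by DESeq2's Wald test to 123 with DESeq2's size factors.

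**Figure D2:**
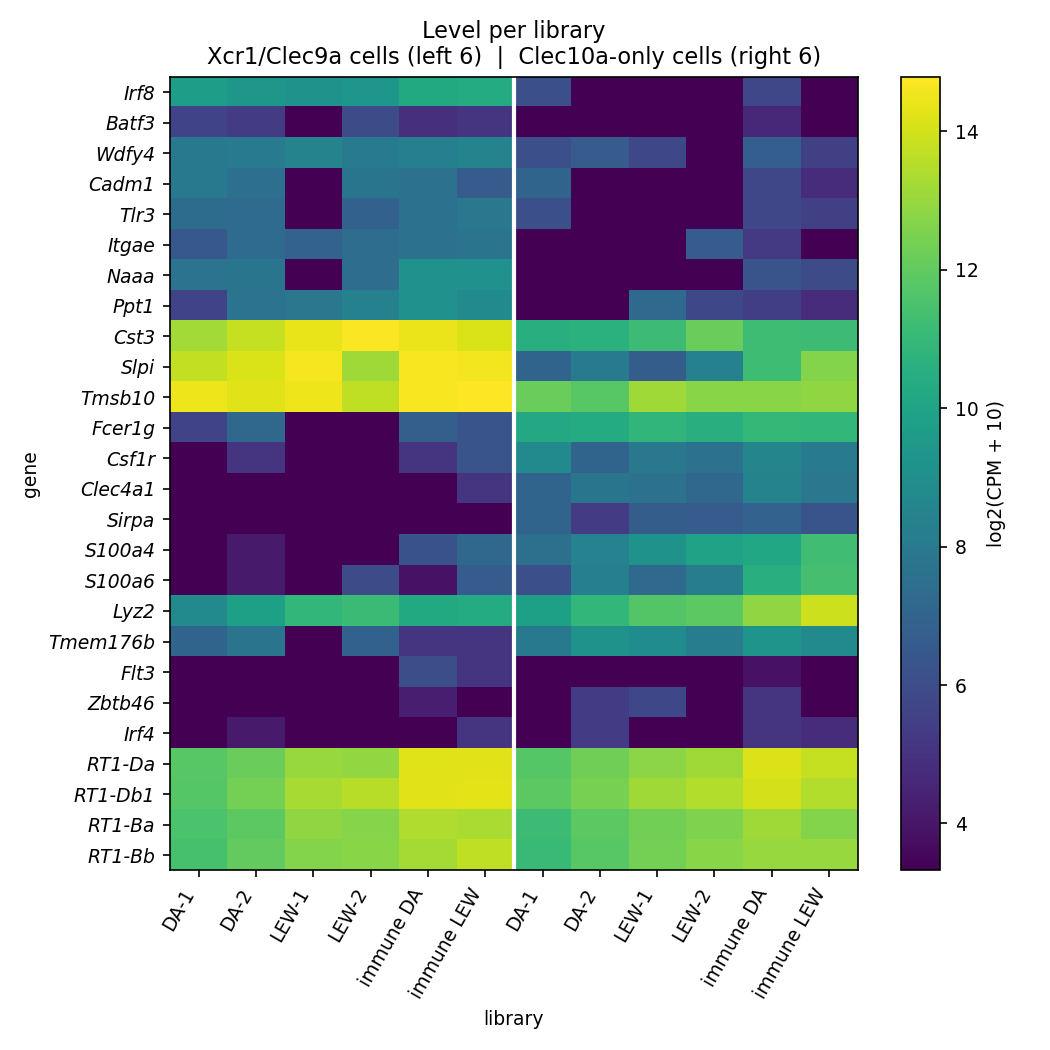
Heat map of 26 genes (rows) in the Xcr1/Clec9a and the Clec10a-only cells of each of the 6 libraries (columns), coloured by log2(CPM + 10) of the summed UMIs. Cst3, Slpi and Irf8 fill the Xcr1/Clec9a columns and Fcer1g and Csf1r the Clec10a-only columns in every library, while the MHC class II genes shown are high in both.

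Of 19 genes known for cDC1 outside the rule, 9 could be tested in the 2-library fit, 7 were higher, next to 1.69% of all genes tested, and none lower, with a median log2 fold change of 2.77 against −0.10 over all genes tested. Genes such as Rab7b passed the filter on low counts through the set where they were high, so the count and the median describe the genes that passed and support nothing. Besides Irf8 the 7 higher genes were Naaa (3.09 ± 0.55), an acid amidase of lysosomes, Ppt1 (3.99 ± 0.61), a lysosomal thioesterase that serves cross-presentation, Itgae (2.77 ± 0.66), the integrin chain CD103, Cadm1 (2.28 ± 0.62), an adhesion molecule, Tlr3 (2.24 ± 0.62), the sensor of double-stranded RNA, and Rab7b, a GTPase of late endosomes. Rab7b had 45 UMIs against 1 in these libraries, a ratio of 32.4 (exact 95% counting interval 5.53 to 1309). Naaa stood at 198, 212, 0, 159.7, 556 and 549.7 CPM in Xcr1/Clec9a cells and 0, 0, 0, 0, 68.1 and 51.7 CPM in Clec10a-only cells, and was lacking in both LEW-1 sums, which rest on 2 and 5 cells. Wdfy4, which cDC1 need to cross-present, stood at 238, 243, 337, 266, 297 and 344 CPM against 59.7, 88.6, 46.9, 0, 97.3 and 34.4 CPM. Its sums were higher in Xcr1/Clec9a cells in all 6 libraries, yet its log2 fold change of 1.48 ± 0.48 in 2 libraries missed the threshold (adjusted p = 0.058). Id2, an inhibitor of helix-loop-helix factors on the same list, differed by 0.48 ± 0.45 (adjusted p = 0.94). Among genes too sparse for the test, Gcsam was found in 20 of 71 against 0 of 57 cells, and Btla, an inhibitory receptor, in 12 against 0. Tlr3, Itgae and Cadm1 stayed past the threshold under 2 of 5 alternatives, Naaa and Ppt1 under 4 of 5 and Rab7b under all 3 that could test it.

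The list of pattern recognition receptors was mostly too sparse to test. Tlr12 and Tlr11, which bind profilin of protozoa in endosomes of rodents, were counted in 34 and 19 of 71 Xcr1/Clec9a cells and in none of 57 Clec10a-only cells. A count of 0 in 57 cells allows a share of up to 5.26% of cells with a UMI, for counting error only, and does not limit the share that expresses the gene. Tlr12 had 55 against 0 UMIs in the 2 tested libraries, at least 13.2-fold higher against a floor of 3 counts over the group, and was called along with Tlr3, though not under 1 of 5 alternatives. In the immune-enriched libraries Tlr11 was found in 12 of 21 Xcr1/Clec9a cells and in 0 of 3618 other cells, which allows up to 0.0829% of these shallower cells to hold a UMI, and Tlr12 in 16 of 21 and in 26 of 3618. Clec7a, the receptor for fungal beta-glucan, was found in 1 of 71 against 25 of 57 cells, and Tlr7, a sensor of single-stranded RNA, in 1 against 9. Of 23 genes on this list, 2 passed the filter on low counts.

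Of 22 genes known for cDC2, 8 were tested, 5 were lower in Xcr1/Clec9a cells, next to 1.84% of all genes tested, and none higher, with a median of −2.59. As above, these describe the genes that passed the filter, Clec4a1 among them through the Clec10a-only set alone. Clec4a1 stood at 119, 207, 188, 138, 336 and 224 CPM in Clec10a-only cells and was counted in 1 Xcr1/Clec9a cell. Over DA-2 and immune DA it had 76 against 0 UMIs, at least 35.2-fold higher in Clec10a-only cells. S100a4, a calcium-binding protein of motile myeloid cells, stood at 179, 325, 563, 964, 1157 and 2462 CPM against 0, 7.85, 0, 0, 63.4 and 137 CPM in Xcr1/Clec9a cells, higher in each library (−4.47 ± 0.56, adjusted p = 4.6e-13). A few cells carried much of these sums, since S100a4 was at 0 in 26 of the 57 cells and cells with 10 or more UMIs of it held 10 of 12 UMIs in LEW-1 (1 cell), 15 of 21 in LEW-2 (1 cell), 214 of 238 in immune DA (6 cells) and 140 of 143 in immune LEW (5 cells). The 6 immune DA cells each had 142 to 255 Lyz2 UMIs. Its relative S100a6 had 320 UMIs against 2 in the tested libraries (ratio 222, interval 61.0 to 1842). Csf1r (−3.48 ± 0.61), Tmem176b (−2.85 ± 0.51) and Tmem176a (−2.34 ± 0.50) were lower in Xcr1/Clec9a cells as well. Klf4 (−0.25 ± 0.88), Il1b (−0.40 ± 0.47) and Notch2 (−0.44 ± 0.66) were not called. Outside the lists the differences on this side included Pltp, the phospholipid transfer protein (125 against 2 UMIs), Capg, a cap of actin filaments (52 against 2), Srgn, the core of granule proteoglycans (−4.29 ± 0.59), and Cybb, the NADPH oxidase subunit gp91phox (−3.52 ± 0.57). Leaving out 2 immune DA Clec10a-only cells that held a B, T or NK cell marker UMI lowered the count of calls from 71 to 31, with Clec4a1, S100a4, S100a6, Pltp and Srgn still past the threshold.

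**Figure D3:**
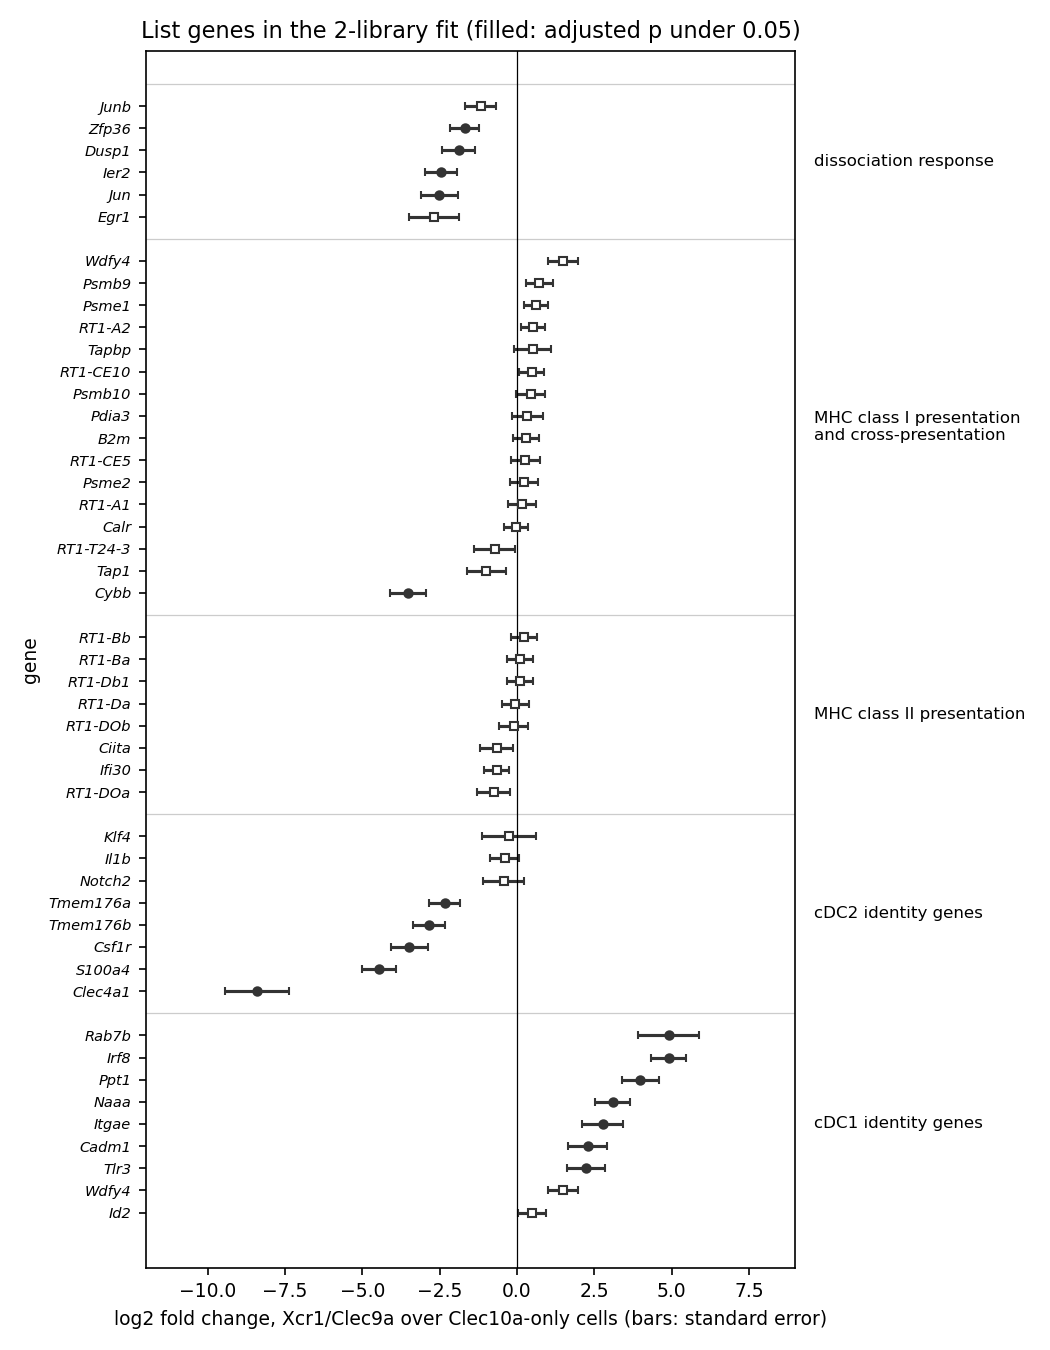
Log2 fold change between Xcr1/Clec9a and Clec10a-only cells, with its standard error as a bar, for the genes of 5 lists tested in the DA-2 and immune DA libraries, where positive values are higher in Xcr1/Clec9a cells and filled points passed the adjusted threshold. The cDC1 genes lie right of 0 (median 2.77), the cDC2 genes left of it (median −2.59) and the MHC class II genes on both sides (median −0.08).

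RT1-Da was counted in all 71 Xcr1/Clec9a and all 57 Clec10a-only cells. This MHC class II gene, the alpha chain of the DR-type molecule, stood at 3609, 4634, 8192, 7717, 19341 and 19927 CPM in Xcr1/Clec9a cells and 3465, 5077, 7127, 9183, 18679 and 14170.1 CPM in Clec10a-only cells. The levels were higher in immune-enriched than in TLH libraries in both sets, and neither set was higher throughout. None of 8 class II genes was called in the 2-library fit (median −0.08, log2 fold changes from −0.75 ± 0.54 for RT1-DOa to 0.23 ± 0.42 for RT1-Bb). In the 6-library fit RT1-Ba (0.44 ± 0.13, adjusted p = 0.024) and RT1-Bb (0.41 ± 0.12, adjusted p = 0.024), the 2 chains of the DQ-type molecule, were called higher in Xcr1/Clec9a cells. The class I and cross-presentation list gave a similar picture. Of 16 genes tested in 2 libraries Cybb alone was called, lower in Xcr1/Clec9a cells, and in 6 libraries 3 of 7 were higher, B2m (0.46 ± 0.12), RT1-CE10 (0.71 ± 0.21) and the proteasome activator Psme1 (0.58 ± 0.18). Class I RT1 genes are near-identical copies between which reads may be split, so their single values are uncertain. RT1-DMa was at 0 UMIs in all 128 cells.

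Genes of maturation were too sparse to test. Ccr7, the receptor that guides mature dendritic cells to lymph nodes, and Fscn1, Ccl19, Il12b, Relb, Lamp3, Cacnb3 and Il15 had 0 UMIs in all 128 cells. A count of 0 over the 786441 UMIs of these cells allows up to 3.81 CPM. Of 22 genes on this list none passed the filter on low counts. Cd86, a costimulatory ligand, was found in 20 of 71 Xcr1/Clec9a and 7 of 57 Clec10a-only cells, and its counterpart Cd80 in 0 and 8. Ccl17 and Ccl22, chemokines of activated dendritic cells, were found in 7 and 1 cells in all. Secreted T-cell cues were as sparse. Il12a, Il6, Il10, Il23a, Il27, Tnf, Aldh1a2 and Ido1 stayed at 0 UMIs, while Il1b was counted in 31 and 20 cells, Il18 in 22 and 21 and Tgfb1 in 37 and 36, and none of these 3 was called.

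Chemokine receptors were mostly too sparse to test. Cxcr3, which follows interferon-induced chemokines, was found in 25 of 71 Xcr1/Clec9a and 2 of 57 Clec10a-only cells, and in 38 of 58 immune-enriched pDC. Ccr1, a receptor of inflammatory chemokines, was found in 1 and 21. Ccl6 was frequent in both sets (44 and 37 cells, −0.33 ± 0.46). Of 18 genes on the list 4 were tested and none called. Of 21 myeloid transcription factors 6 were tested and Irf8 alone was called. Spi1, which encodes the myeloid factor PU.1, differed by −0.11 ± 0.45 and was not called. Of 14 genes shared by both subsets 6 were tested, with Cst3 higher and the leukocyte antigen Ptprc lower (−1.54 ± 0.46) in Xcr1/Clec9a cells. Of 12 cell cycle and 16 interferon response genes 3 each were tested and none called, and Mki67 was counted in 3 and 2 cells. A list of 6 genes had been given for the dendritic cell cluster of these same samples, so it is no independent evidence. Of these, Tlr3 and Cst3 were higher, Lyz2 was lower (−1.91 ± 0.43) and 3 were not called.

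Immediate early genes are known to be switched on by tissue dissociation. Of 11 genes 6 were tested and 4 were called lower in Xcr1/Clec9a cells, next to 1.84% of all genes tested, Ier2 (−2.46 ± 0.51), Jun (−2.51 ± 0.60), Dusp1 (−1.89 ± 0.53) and Zfp36 (−1.70 ± 0.47), with a median of −2.17. Jun stood at 79.3, 94.3, 0, 53.2, 4.88 and 0 CPM in Xcr1/Clec9a cells and 179, 148, 281, 45.9, 209 and 482 CPM in Clec10a-only cells, and the order of the sets turned in LEW-2. Lyve1, 1 of 6 endothelial markers and the only 1 tested, was lower too (−2.53 ± 0.59), and Bst2 of the pDC markers (−1.67 ± 0.46). Hepatocyte genes were not called (0 of 6, median −0.51). Of the other cell type markers the T cell gene Cd2 was tested and not called, 2 of 4 tested monocyte and macrophage genes were called (Slpi and Lyz2, in opposite directions), and no B cell, NK cell, Kupffer cell, mesenchymal or erythroid gene passed the filter. The B cell genes Ms4a1, Cd79b and Pax5 were at 0 in all 128 cells, although Ighm was counted in 28 Xcr1/Clec9a and 12 Clec10a-only cells. The part of dissociation and of other cells in the split was not tested.

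Several calls fell on genes outside the lists. AC120486.10, an uncharacterised gene, had 148 against 0 UMIs in the tested libraries (at least 35.5-fold higher) and was found in 53 of 71 Xcr1/Clec9a cells, in 0 of 57 Clec10a-only cells and in 56 of 21652 other TLH cells. Ctse, the endosomal protease cathepsin E, had 102 against 3 UMIs (ratio 24.5, interval 8.15 to 121). Tmsb10, a binder of actin monomers, stood at 23317, 19652, 22893, 13305, 25948 and 28287 CPM against 4600.3, 3572, 9049, 6795, 6978 and 7610.2 CPM, higher in each library (2.14 ± 0.46 in 2 and 1.94 ± 0.17 in 6 libraries). In the 6-library fit 15 of 67 tested ribosomal protein genes were called lower in Xcr1/Clec9a cells, next to 5.78% of all genes tested there. In the promoters of the called genes the IRF site was found in 6 of 31 promoters of genes higher in Clec10a-only cells (19.4%, in Bst2, Cybb, Hopx, Lamp1, Pltp and Srgn) and in 2 of 28 of genes higher in Xcr1/Clec9a cells (7.14%). Among all tested genes 4.26% of promoters held it, and these shares are descriptions of letters only.

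The 128 cells were then set against other antigen-presenting cells of the same libraries. MHC II-high Lyz2 cells were 38 cells with at least 10 Cd74 and 5 Lyz2 UMIs that lacked Xcr1, Clec9a, Clec10a, Siglech and B cell genes, and met the same Kupffer limit. Summed over both sets, the dendritic cells had more Cst3, Slpi, Irf8 and S100a11 and less Fcer1g than these neighbours. Slpi stood at 8151, 14244, 7507, 4338, 14101 and 14350.3 CPM in dendritic cells and 172, 1683, 37.4, 469, 129 and 187 CPM in MHC II-high Lyz2 cells, and was higher in the pooled dendritic cells of every library. The Clec10a-only sums of Slpi given above lay below those of the Lyz2 cells in DA-1, DA-2 and LEW-2 and above them in LEW-1, immune DA and immune LEW, and the median Clec10a-only cell had 0 CPM of both Slpi and Irf8. Fcer1g stood at 2061, 1269, 1610.2, 1469, 2132 and 2936 CPM in the Lyz2 cells, below the Clec10a-only sums of DA-2, LEW-1 and LEW-2, above those of DA-1, immune DA and immune LEW, and above every Xcr1/Clec9a sum. Cst3 was higher in Clec10a-only than in Lyz2 cells in each library but DA-2. S100a11 stood at 1216, 1141, 1224, 1183, 1383 and 1887 CPM against 172, 359, 337, 563, 452 and 499.7 CPM. The fit on DA-2 and LEW-2, the libraries with at least 10 cells of each, left 1 residual degree of freedom. Its p-values therefore say little about the spread between rats. The fit called 14 of 512 genes (2.73%), 11 higher in dendritic cells (2.15%) and 3 lower (0.586%). These included Irf8 (3.28 ± 0.76, adjusted p = 0.0012), Slpi (3.22 ± 0.20, adjusted p = 1.8e-43), Cst3 (2.56 ± 0.26, adjusted p = 3.9e-05), S100a11 (1.46 ± 0.32), RT1-Db1 (0.85 ± 0.20) and RT1-Ba (0.74 ± 0.17), and below 0 Fcer1g (−1.23 ± 0.28), Tyrobp (−0.57 ± 0.17) and Gpx1. The Irf8 change rests on few UMIs in the Lyz2 cells and is given without a counting interval. In all 6 libraries 22 of 422 genes were called (5.21%), 8 higher (1.9%) and 14 lower (3.32%), and 8 of the 22 were also among the 14 of the first fit. Both fits include DA-2 and LEW-2, so this overlap is no independent repeat. Slpi and S100a11 were among the 5.21% of tested genes that were higher in all 6 libraries, and S100a4 (−2.09 ± 0.31) and the transcription factor Cebpb (−1.70 ± 0.29) were lower in the dendritic cells. The Lyz2 cells had to hold at least 5 Lyz2 UMIs, and the dendritic cells had no such minimum. The S100a4 and Cebpb differences were therefore not free of that selection and are descriptions only. RT1-Db1 (1.75 ± 0.75) and RT1-Ba (1.54 ± 0.59) missed the threshold in the 6-library fit, and the sums of the Lyz2 cells rest on 2 cells in DA-1, 2 in immune DA and 3 in immune LEW. DESeq2's Wald test called 3 genes in 2 libraries and 20 in 6.

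Plasmacytoid dendritic cells (pDC), the interferon producers of the lineage, were 98 cells with at least 2 Siglech UMIs. Of 1343 genes tested in DA-2, LEW-2, immune DA and immune LEW, 296 were called (22%), 145 higher in the 128 cells of both sets (10.8%) and 151 lower (11.2%). The count was 121 without immune DA and 711 without the filter on low counts. The 128 cells were higher in class II genes (4 of 5 tested), with RT1-Db1 at 3599, 5397, 9392, 11708, 18391 and 15304 CPM against 417, 860.0, 677, 1301, 3297 and 2282 CPM in pDC and the same direction in every library, as in 8.88% of 529 genes tested in all 6 (2.89 ± 0.12, adjusted p = 6.9e-13). The rule required at least 10 UMIs of Cd74, which accompanies class II molecules, in the 128 cells but set no such minimum for pDC. The class II difference was therefore not free of that selection and is a description only. Slpi had 9724 UMIs against 1 in these libraries (ratio 6843, interval 1228 to 270328). Lyz2 (6.69 ± 0.23), Id2 (5.11 ± 0.53), Cst3 (4.01 ± 0.36), Wdfy4 (3.54 ± 0.44) and Spi1 (3.11 ± 0.32) were higher too. The cytokine gene Il1b had 126 UMIs against 0 in pDC, at least 29.6-fold higher. Irf8 stood at 524, 515, 165, 296, 643 and 560.3 CPM in the 128 cells against 695, 595, 501, 578, 2387 and 2331 CPM in pDC, where it was higher in every library, as were 12.7% of tested genes (−1.34 ± 0.24, adjusted p = 0.0015). The Irf8 sums of Xcr1/Clec9a cells alone, given above, lay above those of pDC in all 4 TLH libraries and below them in both immune-enriched ones, so in TLH the order comes from the Clec10a-only cells in the sum. All 4 tested pDC markers were lower in the 128 cells, Spib, Runx2, Tcf4 and Bst2 (from −5.51 ± 0.50 for Spib to −2.63 ± 0.21 for Bst2), as was the B cell adaptor Blnk (2 against 311 UMIs). A fit on all 6 libraries called 116 of 529 genes (21.9%), 62 higher (11.7%) and 54 lower (10.2%), and 112 of them were also among the 296. It includes the libraries of the first fit, so this overlap is no independent repeat.

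The study set DA against LEW rats. Cells that met the rule made up a larger share of the filtered cells in DA libraries of each preparation. The share was 0.681% (0.389 to 1.1%) in DA-1 and 0.433% (0.315 to 0.581%) in DA-2, with exact binomial intervals, against 0.128% (0.0516 to 0.264%) in LEW-1 and 0.312% (0.161 to 0.545%) in LEW-2. The immune-enriched libraries held 3.35% (2.40 to 4.56%) in DA and 0.374% (0.179 to 0.686%) in LEW. Other leukocytes differed the same way in this pair, with pDC at 3.53% and 0.635% and B cells at 5.25% and 1.83%. Per pDC it held 0.951 dendritic cells in DA and 0.588 in LEW. In TLH pDC were lower in DA (0.128 and 0.138% against 0.202 and 0.312%), as were B cells (0 and 0.0492% against 0.0916 and 0.130%). DA lay above LEW in both preparations, although the intervals of DA-1 and DA-2 both overlap that of LEW-2. The mean difference was 2.30 on the log2 scale (4.93-fold), with a two-sided exact permutation p of 0.167 within preparations, the smallest that the 12 arrangements can give. Per cell with a Ptprc UMI the difference was 1.92 (log2) and per pDC 1.53. Without immune DA or without immune LEW, either of which leaves TLH alone, it was 1.44 (2.71-fold). The shares are of cells in each suspension that passed the filters.

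Within the dendritic cells the subset shares had wide intervals. Xcr1/Clec9a cells were 56.2% (29.9 to 80.2%) of the dendritic cells in DA-1, 75% (59.7 to 86.8%) in DA-2, 28.6% (3.67 to 71.0%) in LEW-1, 50% (21.1 to 78.9%) in LEW-2, 43.6% (27.8 to 60.4%) in immune DA and 40% (12.2 to 73.8%) in immune LEW. The DA share lay above the LEW share in each preparation by 15 percentage points on average (exact permutation p = 0.167, again the smallest possible), by 9.61 to 26.3 points with 1 library left out and by 0.254 points with the nuclei libraries added, and the intervals of all 6 libraries overlapped one another. The value with nuclei rests on 1 LEW nucleus that counts as 100%, since the other LEW nuclei library held 0 and dropped out.

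**Figure D4:**
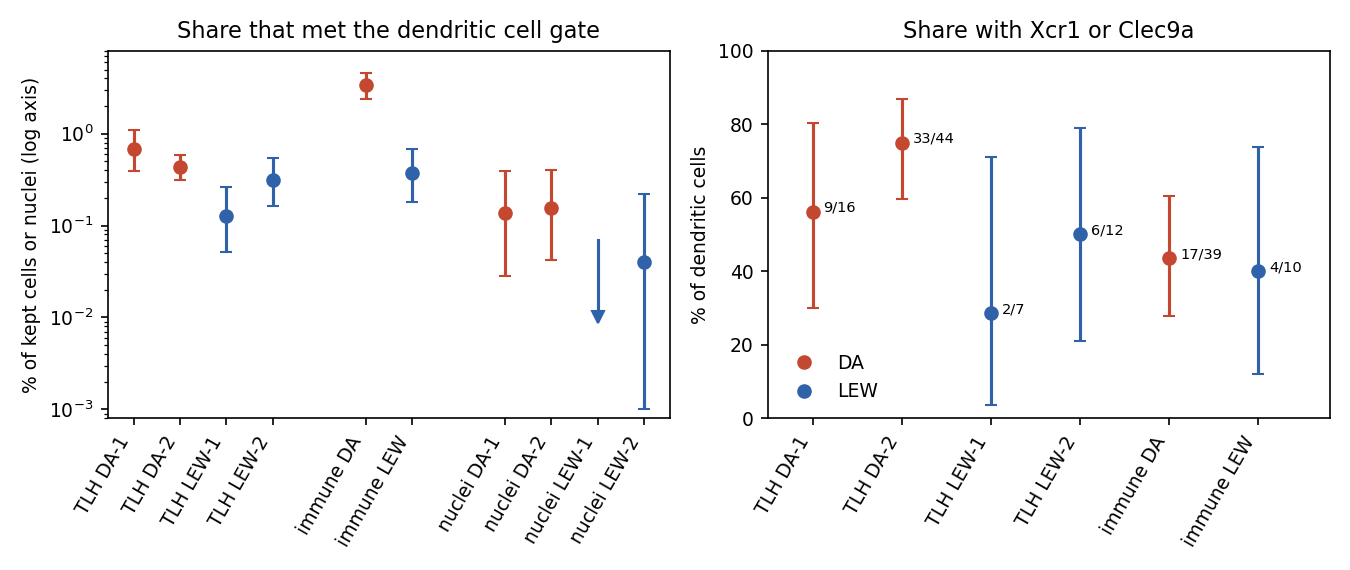
Left, share of filtered cells or nuclei that met the dendritic cell rule in each library on a log axis in percent, with exact 95% binomial intervals and a down arrow where the count is 0, and right, the share of these that are Xcr1/Clec9a cells. DA libraries lie above LEW libraries of the same preparation on the left (0.681 and 0.433% against 0.128 and 0.312% in TLH), and the intervals on the right overlap.

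Gene levels within the dendritic cells were then compared between strains. The fit on the 5 libraries with at least 10 such cells, which drops LEW-1 with 7, called 0 of 1492 genes (0%), with 59 at an unadjusted p under 0.05 and 0 by DESeq2, with 29 unadjusted. The same fit called 47 genes without LEW-2, 11 without DA-1, 4 without immune LEW, 12 without the filter on low counts and 10 with a replicate block. Whether the replicate numbers pair the libraries is not known. Groups did not overlap within either preparation for 182 genes higher in DA (12.2%) and 322 lower (21.6%). With LEW-1 taken in, a choice made after the data were seen, 8 of 880 genes were called (0.909%), 2 higher in DA (0.227%) and 6 lower (0.682%). In this fit 52 genes (5.91%) lay higher and 126 (14.3%) lower in DA without overlap within either preparation. All 8 had the same sign in the 5-library fit, whose libraries are all part of this fit, so the agreement is no independent repeat.

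The 8 genes were Slfn4, Lyz2, S100a4, Hopx, Tmem176a and Ugt2b, lower in DA, and Ifi27 and Cth, higher in DA. Slfn4, a schlafen family gene of myeloid cells, stood at 215, 99.3, 694, 468, 205 and 727 CPM (−1.88 ± 0.33, adjusted p = 0.014), with every DA library below every LEW library. The same order held in each subset, at 119, 39.3, 561, 266, 63.4 and 779 CPM in Xcr1/Clec9a and 358, 325, 750.2, 643, 345 and 689 CPM in Clec10a-only cells. The subset sums are parts of the tested sums, so their order adds no separate evidence. Counts were low in TLH, where both subsets together held 9, 16, 21 and 19 Slfn4 UMIs in DA-1, DA-2, LEW-1 and LEW-2. The Xcr1/Clec9a sum of LEW-1 rests on 2 cells. How many other genes had this order was not counted. Over all other cells the Slfn4 difference was −0.94 (adjusted p = 0.30). Lyz2 stood at 619.7, 1135, 2910.1, 3056, 4385 and 9475 CPM (−1.42 ± 0.26, adjusted p = 0.015) and S100a4 at 71.5, 74.4, 397, 518, 611 and 1465 CPM (−1.81 ± 0.36, adjusted p = 0.023), and in other cells they differed by −0.61 and −0.08. The S100a4 sums of both TLH LEW libraries rest mostly on 1 cell each, as given above, and cells with 100 or more Lyz2 UMIs were 6 of 22 Clec10a-only cells in immune DA and 3 of 6 in immune LEW. Slfn4, Lyz2, S100a4, Hopx and Tmem176a were also among the genes higher in Clec10a-only than in Xcr1/Clec9a cells, and the Clec10a-only share was lower in DA. Within Clec10a-only cells Slfn4, Lyz2 and S100a4 differed by −0.86, −1.03 and −1.12 between strains (adjusted p = 0.53, 0.47 and 0.53). Hopx (−1.67 ± 0.36), a homeodomain protein without DNA binding, and Tmem176a (−1.56 ± 0.32) were lower in DA, and within Clec10a-only cells they differed by −1.43 and −1.01 (adjusted p = 0.53 and 0.66). In other cells Tmem176a differed by −1.11 (adjusted p = 0.066). Over the fits within 1 subset, 3 of the 8 genes were abundant enough to be tested in Xcr1/Clec9a cells and 7 in Clec10a-only cells, and none of these was called. Ifi27, an interferon-induced mitochondrial protein, stood at 1573, 1905, 926, 813, 1156 and 334 CPM (1.36 ± 0.25, adjusted p = 0.015) and differed by 0.13 in other cells (adjusted p = 0.90). Cth, an enzyme of cysteine synthesis (2.29 ± 0.37, adjusted p = 0.013), and Ugt2b, a glucuronosyltransferase (−2.52 ± 0.41, adjusted p = 0.013), are made by hepatocytes and differed in all other cells by 1.59 and −2.22. Hepatocyte markers took 4.78 and 5.14% of UMIs in the DA and 3.07 and 4.35% in the LEW dendritic cells of TLH, and their part in these calls was not tested. The differences between dendritic cells and other cells were not tested either. Leaving out 1 library gave 0 calls without DA-1, LEW-1 or LEW-2, 2 without DA-2, and 14 and 13 without immune DA and immune LEW.

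**Figure D5:**
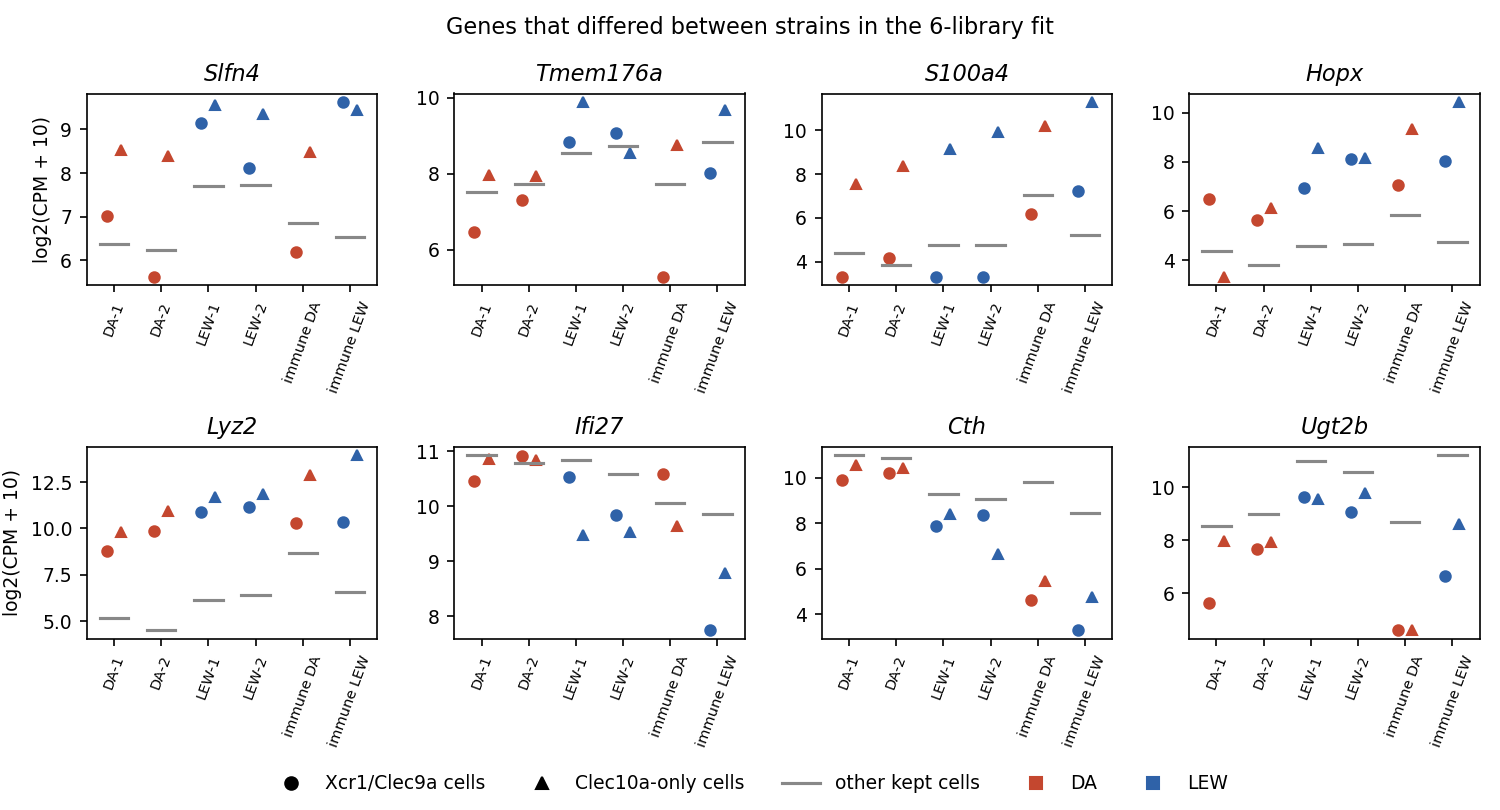
Level of the 8 genes as log2(CPM + 10) by library, 1 panel per gene with its own scale, where circles are Xcr1/Clec9a and triangles Clec10a-only cells, red is DA and blue LEW, and grey bars are the other filtered cells. The Clec10a-only triangles of Slfn4, Lyz2 and S100a4 lie lower in DA than in LEW within TLH and within the immune-enriched pair, and those of Ifi27 higher.

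Gene lists showed no strain call in the 5-library fit. The 8 class II genes had a median of −0.53 in DA against LEW, next to −0.01 over all genes tested, and the 8 cDC1 genes 0.46. RT1-A1 differed by −1.51 in the dendritic cells and −1.66 in other cells, and RT1-A2 by 1.51 and 3.01. DA and LEW rats carry different MHC haplotypes and reads of these near-identical copies may map unevenly, so these values are uncertain. On simulated counts the 5-library fit recovered 71% of log2 changes of 3 and 20% of changes of 1.5. The simulation changed 200 of 1318 genes, while the real fit called 0 of 1492. These rates may therefore not hold for the real data, where fewer genes may differ.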

How the data were processed

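Cells of 6 rat liver libraries (TLH, 2 DA and 2 LEW; immune-enriched, 1 DA and 1 LEW, each from a separate rat) were analysed, with 4 nuclei libraries of other rats set beside the shares. The deposited values are whole UMI counts that the authors made with Cell Ranger 3.1.0 (submitters' processing notes), in matrices of 32883 genes by barcodes, without normalisation. The matrices of the cell libraries were paired by row with the gene list of a nuclei library, which has the same number of rows. That the row order is shared is not stated in the sources used here, and every gene value of the cell libraries rests on it. The tissue section libraries (Space Ranger 1.1.0) were not used here. Kept barcodes had a minimum of 2000 UMIs and no more than 40% from mitochondrial genes in TLH, with 1000 and 50% for immune-enriched cells and 1000 and 10% for nuclei, and no doublet caller was run. Free RNA was not removed.

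Members were selected by the 11-gene rule in the text. The members, the 24 gene lists (275 genes, 14 not found) and the tests were chosen with earlier results of these data known. UMIs were summed per library and cell class, kept where a class had at least 10 cells, and tested with edgeR 4.0.16 (TMM, filterByExpr, robust quasi-likelihood F-test, library or preparation as covariate) in R 4.3.3, with Benjamini-Hochberg adjustment at 0.05 over all genes tested and SE taken as the log2 fold change divided by the root of F. Adjusted p-values in the text are from this test unless DESeq2 1.42.0 is named. Differences are log2 fold changes ± SE. Fits at a lower cell minimum were added after the data were seen. Shares were compared by exact permutation within preparations, with exact (Clopper-Pearson) 95% intervals that cover counting error only. With 1 to 3 UMIs in a group an exact counting interval of the ratio is given for some genes, and the counts or a fitted change alone for others. With 0 UMIs a bound against 3 counts over the group is given.

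Genes were named by rule, as the 10 largest called changes per direction that kept their direction in every library, plus the members of the lists. AC120486.10 and Ctse meet it, and single counts of untested genes outside the lists were picked after their values were seen. The fits were tested on simulated counts, where the 2-library subset fit recovered 76% of log2 changes of 3 and 13% of 1.5, and the 6-library one 85% and 89%. The simulations changed 200 of 2001 and 200 of 348 genes, so these rates cannot be compared between the fits. The larger changed share also differs from the real 6-library data. Alternatives were other size factors, the Wald test, no filter, left-out libraries, other cell filters and a replicate block. Promoters are from RefSeq (GRCr8), where 26 of 34 genes higher in Xcr1/Clec9a cells and 31 of 37 lower ones matched. Plots used matplotlib 3.10.9 and Python 3.11.15.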

Additional observations from a re-analysis of the deposited data

Results flagged for a closer look

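The nuclei libraries hold a signal outside the cell libraries compared above. Of 12525 nuclei that passed the filters (a minimum of 1000 UMIs, no more than 10% mitochondrial), 8 met the dendritic cell rule, with 3 of 2205 (0.136%) and 4 of 2557 (0.156%) in the 2 DA libraries and 0 of 5262, which allows up to 0.0570% by a limit of 3 counts and up to 0.0701% by the exact 95% interval, and 1 of 2501 (0.0400%) in the 2 LEW libraries. In the 6 nuclei with Xcr1 or Clec9a, Slpi and Cst3 were counted in 6, Irf8, Wdfy4 and Naaa in 5, Itgae in 4 and Xcr1 in 3, while Fcer1g, Csf1r, Cadm1 and Batf3 were counted in 0. Slpi was counted in 0.280%, Irf8 in 1.77% and Wdfy4 in 0.472% of the other nuclei. The 2 nuclei with Clec10a alone both held Sirpa and no Slpi. The gene counts in these nuclei were not tested, and their shares entered the strain comparison of shares as an alternative only.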

How the results depend on the processing

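No gene followed across the alternatives reversed, while some list genes that were not called (Csf1r and Il1b between strains, for example) changed sign between the fits on more and on fewer libraries. Over the followed genes 1352 values kept their side of the threshold, 227 passed it newly and 181 fell short. Counts of calls moved more. Between the subsets, 71 genes became 123 with DESeq2 size factors, 12 by the Wald test, 34 without the filter, 31 without the 2 cells holding B, T or NK UMIs and 33 at a minimum of 5 cells. At a minimum of 2 cells the count was 56 (41 by the Wald test), from 39 without immune LEW, 41 without immune DA and 45 without DA-2 to 89 without LEW-1. Between strains, 0 became 12 without the filter and 8 at a minimum of 5 cells (12 in TLH alone). Leaving out 1 library gave 0 to 47 calls, with 11 without DA-1, 47 without LEW-2 and 4 without immune LEW, and 0 to 14 at the minimum of 5 cells, namely 0 without DA-1, LEW-1 or LEW-2, 2 without DA-2, 14 without immune DA and 13 without immune LEW. Against MHC II-high Lyz2 cells, 14 became 3 by the Wald test and 22 at a minimum of 2 cells (10 to 27 with 1 library left out, 27 without DA-1 and 25 without DA-2). Against pDC, 296 became 711 without the filter, 184 at 5 cells, 116 at 2 cells and 104 by the Wald test at 2 cells. Leaving out 1 library gave 121 (without immune DA) to 373 (without DA-2) calls, and at 2 cells 85 without immune DA, 94 without immune LEW, 118 without DA-2, 177 without LEW-2, 181 without LEW-1 and 184 without DA-1. The cause was not tested. Filters change how many genes are tested.

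The share difference was 1.44 to 2.62 (log2) with 1 library left out, and 2.44 (exact permutation p = 0.0278) with the nuclei added. That p is the smallest that the 72 arrangements can give, in a setting that was not planned. The nuclei side rests on 7 DA and 1 LEW nuclei, and a small constant was added to every count because 1 library held 0. The Xcr1/Clec9a share difference was 9.61 to 26.3 points with 1 library left out and 0.254 with the nuclei added (exact permutation p = 1), where 1 nucleus stood for the LEW nuclei. With a replicate block the share difference was 2.01 and the Xcr1/Clec9a share difference 18.8 points (exact permutation p = 0.25 for both, the smallest it can give), and the strain fit called 10 genes, or 7 at the minimum of 5 cells. Libraries of like number did not deviate together (r = 0.00786 over 1567 genes). This does not settle whether they were handled as pairs, which the sample titles do not state. Not run were left-out libraries in the 2-library fits, which leave no residual degrees of freedom, fits of 1 subset at 10 cells, and, outside the pDC comparison, fits requiring 2 UMIs of a subset gene, for lack of libraries.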

Other observations

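Some values belong to no comparison above and were picked after they were seen. Cxcl2, a neutrophil-attracting chemokine, had 130 UMIs in 2 Clec10a-only cells and 0 in Xcr1/Clec9a cells. Both Irf8 and Slpi were counted in 53 of 71 Xcr1/Clec9a cells and in 1 of 57 Clec10a-only cells. Of the 3 Clec10a-only cells above 10000 CPM of Slpi, 2 were from immune DA and 1 from immune LEW. Ighm, the heavy chain of IgM, was counted in 15 of 21 immune-enriched Xcr1/Clec9a cells, 8 of 28 Clec10a-only cells, 56 of 58 pDC and 110 of 110 B cells.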
